A study of Rattus norvegicus with 28 samples.

Results

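Subunits of the oxidative phosphorylation system were compared between low and high wall shear stress (WSS) regions of the normal rat aorta. Genes were taken by symbol from probe sets that carry 1 gene symbol in the platform annotation. The symbols taken were those starting with Ndufa, Ndufb, Ndufc, Ndufs or Ndufv and a number, with Uqcr, with Cox and a subunit number, or with Atp5, together with the 4 Sdh genes, Cycs and Cyc1. The assembly genes from Cox10 onward were left out of this set. This gave 82 genes of 17245 on the array, and 78 of them, among 11750 genes in all, reached the mean level of 4 needed for testing. Ndufb4, Cox8c, Atp5mgl3 and Atp5mgl4 stayed under that level and are only named. Of the 78 genes, 30 belonged to complex I, 4 to complex II, 9 to complex III, 16 to complex IV and 18 to complex V, and Cycs made up the rest.

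The respiratory chain sits in the inner mitochondrial membrane. Complexes I and II take electrons from NADH and succinate and hand them to ubiquinone, complex III passes them on to cytochrome c, and complex IV reduces oxygen. The proton gradient built up by complexes I, III and IV drives complex V, the ATP synthase. Most subunits are encoded in the nucleus and a few in mitochondrial DNA, and tissues such as heart muscle and brown fat are rich in them.

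The tissue came from untreated male Wistar rats, and every group shared this strain, sex and lack of treatment. The low WSS group held 14 pools from the distal lesser curvature of the aortic arch, and the high WSS group held 14 pools from the greater curvature, with pieces from 5 animals in each pool and 70 animals in all. Pools of the same number formed a pair, which gave 14 pairs. Pieces contained the entire wall, so a level is a mixture over its cell types, and a smaller number of cells of one type cannot be told apart from less RNA per cell. Levels are given as log2 signal of Affymetrix Rat Gene 1.1 ST arrays, so that a difference of 1 is a doubling, and differences are low minus high WSS.

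Array medians were 4.85 to 4.92 in low WSS and 4.88 to 5.00 in high WSS, and pairs of arrays correlated at 0.9792 to 0.9965 across probe sets. The mean over the 9 tested contractile smooth muscle genes varied little, from 10.81 to 11.3 in low WSS and from 10.77 to 11.39 in high WSS. Single genes could vary more, as Des ran from 8.83 to 10.59 in low WSS and from 8.59 to 10.64 in high WSS. Genes of fat cells varied far more among pools. The mean level of a list of 19 white and brown fat cell genes ran from 5.72 over a median of 6.51 to 9.08 in low WSS and from 5.65 over a median of 6.01 to 9.02 in high WSS. None of these 19 genes is a subunit gene. In 9 of 14 pairs the list mean of the low WSS pool was the higher one, most in pairs 1, 2, 3 and 7, with differences of 1.83, 3.00, 2.35 and 2.72, and pairs 4 and 6 had its most negative differences, -1.69 and -1.70. The 2 list genes that rose in low WSS were Fabp4 and Lpl, a fatty acid binding protein and a lipase, and Dio2, a thyroid hormone deiodinase, fell. No marker can be read as absent on this scale, since array levels have no true zero.

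The promoters of 4 genes are shown because their genes carry contrasts described below, and they were chosen with the values known. Atp5mc3 is 1 of the 7 genes that were lower in low WSS in all 14 pairs, and Atp5pf is the gene that was higher in all 14. Cox8b, which tracked the fat cell genes, is shown with its ubiquitous counterpart Cox8a. Each line gives the 180 bases before the start of the gene, from RefSeq promoters of build GRCr8, 5′ to 3′ on the strand of the gene. Capitals mark matches to 4 motifs of factors known to act on nuclear genes for mitochondrial proteins, searched on both strands.
Atp5mc3 (chr3:79220665-79220844, minus strand): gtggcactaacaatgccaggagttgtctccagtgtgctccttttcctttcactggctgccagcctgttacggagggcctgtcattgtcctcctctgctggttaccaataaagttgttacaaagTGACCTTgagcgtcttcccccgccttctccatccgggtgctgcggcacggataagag
Atp5pf (chr11:37375102-37375281, minus strand): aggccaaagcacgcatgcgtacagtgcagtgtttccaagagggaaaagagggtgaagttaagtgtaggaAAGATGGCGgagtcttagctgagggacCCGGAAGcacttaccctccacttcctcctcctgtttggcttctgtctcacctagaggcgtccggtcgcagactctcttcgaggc
Cox8b (chr1:205408274-205408453, minus strand): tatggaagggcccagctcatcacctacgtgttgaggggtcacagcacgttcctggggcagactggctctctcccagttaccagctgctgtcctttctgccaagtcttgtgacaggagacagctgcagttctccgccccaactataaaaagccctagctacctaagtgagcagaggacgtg
Cox8a (chr1:213833624-213833803, minus strand): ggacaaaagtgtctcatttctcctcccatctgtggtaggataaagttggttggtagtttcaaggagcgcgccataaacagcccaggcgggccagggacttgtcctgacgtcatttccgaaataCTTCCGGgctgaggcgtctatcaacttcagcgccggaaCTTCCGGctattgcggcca

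The motifs were GCGCA and GCGC with any 1 base between them for NRF1, CCGGAAG for GABP, AAGATGGCG for YY1 and AAGGTCA for ERR, or TGACCTT when read from the other strand, and no position was shared between them in these windows. Of the 82 subunit genes, 72 had a promoter in the table. Within 250 bases before the start, the GABP letters occurred in 19 of 72 subunit promoters (26.4%) and in 7.74% of all 27457 promoters of the table. The NRF1 letters occurred in 10 (13.9%) against 4.17% of all promoters, the ERR letters in 7 (9.72%) against 3.77%, and the YY1 letters in 1 (1.39%) against 0.736%. At least 1 motif was found in 31 subunit promoters (43.1%) and in 15.3% of all promoters. The shares over all promoters include genes that were not tested here, and shares over the tested genes alone were not computed. The share with the GABP letters was 25.0% among the 16 matched genes that rose in low WSS and 25.0% among the 16 that fell. In the printed windows, Atp5pf holds the YY1 and the GABP letters, Cox8a holds the GABP letters at 2 places, Atp5mc3 holds the ERR letters, and Cox8b holds none. A match describes letters only and is not evidence of a bound factor.

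Subunit genes differed in both directions between the regions. At an adjusted p (Benjamini-Hochberg over all probe sets tested, limma with the pair as a block) under 0.05, 17 of 78 genes rose in low WSS (21.8%) and 18 fell (23.1%), while 43 did not pass, so that 44.9% were called. Over all 11750 genes tested, 41.7% were called, with 19.7% higher and 22.0% lower, so that the shares among subunit genes lay near this background. When each array was centred on its own median, 22 subunit genes rose and 17 fell, and the background became 26.9% and 16.7%. The median difference of the 78 genes was 0.04, against -0.005 over all genes tested. The methods corrected by Bonferroni, and at that threshold over the probe sets tested here (p = 3.74e-06) 5 subunit genes differed (6.41%, against 6.91% of all genes), namely Ndufv2, which was higher, and Ndufb11, Ndufa7, Cox7a2l and Atp5mc3, which were lower. Atp5pf alone was higher in all 14 pairs (1.28%, against 4.38% of all genes), and 7 were lower in all 14 pairs (8.97%, against 4.83%). The plot of differences by complex shows genes on either side of 0 within complexes I, III, IV and V.

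**Figure D1:**
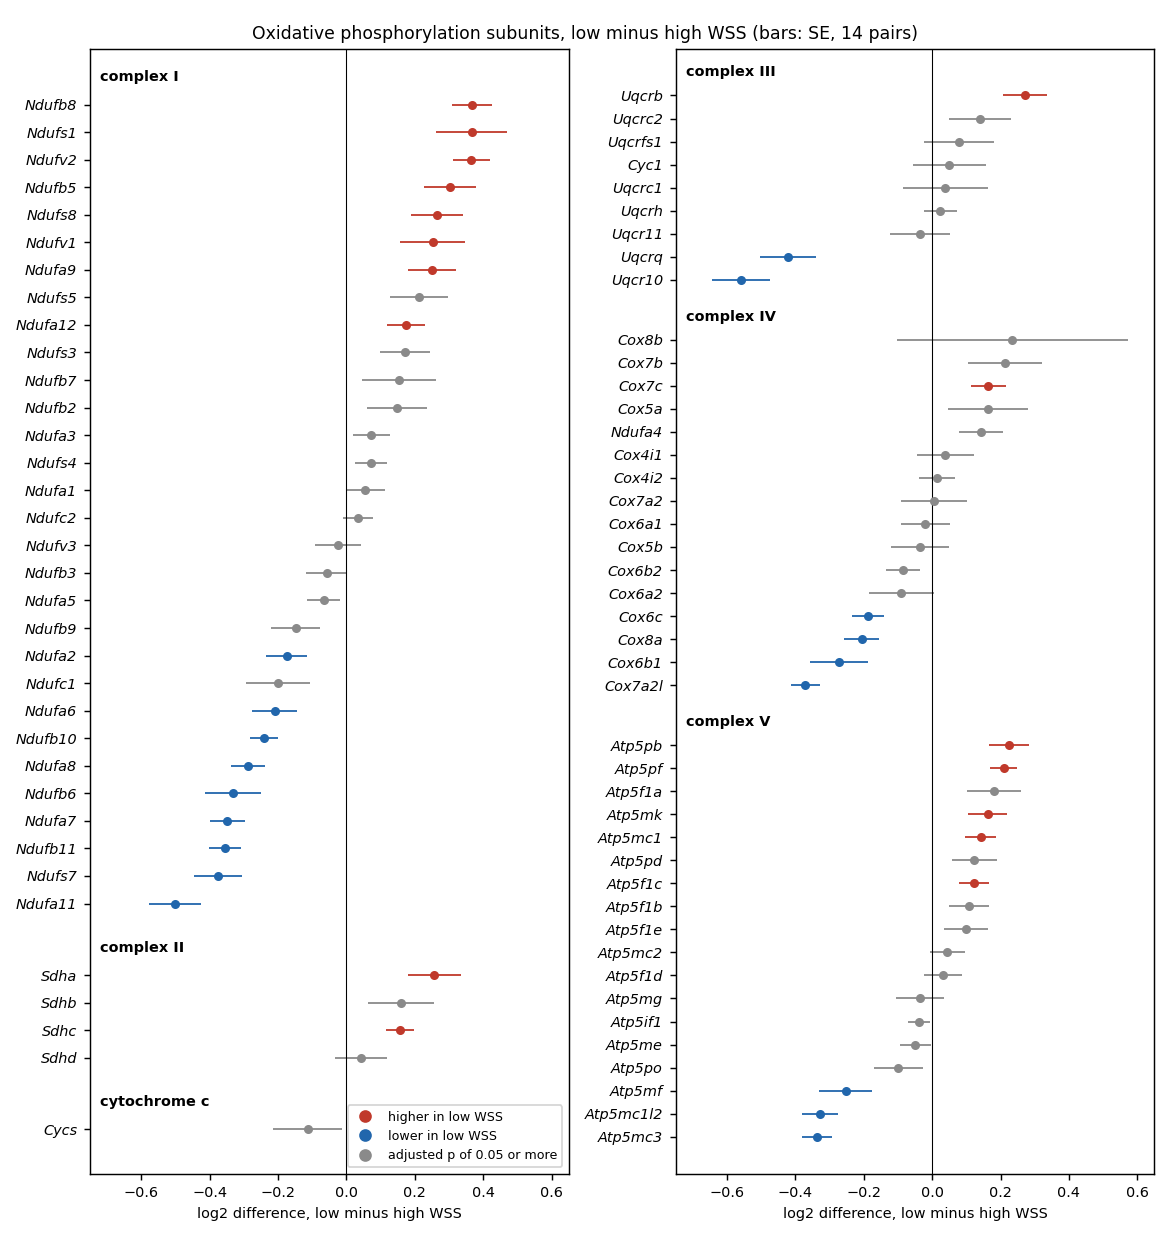
Log2 difference (low minus high WSS, x axis) of 78 subunit genes, grouped by complex and ordered by difference within it, with bars of 1 SE over 14 pairs. Red marks genes that rose in low WSS, blue genes that fell and grey genes at an adjusted p of 0.05 or more. Complexes I, III, IV and V hold red and blue points, with the lowest at -0.56 (Uqcr10) and the highest at 0.37 (Ndufb8).

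Complex I, the NADH dehydrogenase, had 8 genes that rose in low WSS, 9 that fell and 13 that did not pass, with a median of 0.045. These counts, like those of the complexes that follow, are read against the 19.7% higher and 22.0% lower among all genes tested. Whether any complex departs from these shares was not tested. Its core subunits, which include those that bind the flavin and the iron-sulphur clusters, had 4 of 6 genes higher, 1 lower and a median of 0.26. Its supernumerary subunits, which surround the core, had 4 of 24 genes higher, 8 lower and a median of -0.04. A difference between the core and the supernumerary genes was not tested. Splitting complex I in this way was done with the values known.

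Among the core genes, Ndufv2, which holds an iron-sulphur cluster at the NADH end, had levels of 9.89 to 10.36 (median 10.1) in low WSS and 9.43 to 10.08 (median 9.72) in high WSS. The ranges overlapped, yet 13 of 14 pairs were higher in low WSS, with a difference of 0.365 (SE 0.054, adjusted p = 3.96e-05). Ndufs1, the largest iron-sulphur subunit, had levels of 7.8 to 9.18 (median 8.28) in low WSS and 7.71 to 8.69 (median 7.94) in high WSS. Its ranges overlapped widely, and 12 of 14 pairs were higher in low WSS, by 0.37 on average (SE 0.10, adjusted p = 0.00846). Ndufs8, another iron-sulphur subunit, had levels of 7.85 to 8.48 (median 8.05) in low WSS and 7.71 to 8.13 (median 7.85) in high WSS. Its ranges overlapped as well, and it rose by 0.265 (SE 0.075, adjusted p = 0.00864, 13 of 14 pairs). Ndufv1, which takes the electrons from NADH, rose by 0.25 (adjusted p = 0.0395), but by the methods' paired t-test it did not pass (adjusted p = 0.0713), nor when any of pairs 1, 2, 3, 7, 9, 10 or 12 was left out (differences of 0.195 to 0.255, adjusted p of 0.0536 to 0.0802). Ndufs7, whose iron-sulphur cluster hands electrons to ubiquinone, went the other way. Its levels were 10.32 to 10.88 (median 10.48) in low WSS and 10.62 to 11.13 (median 10.91) in high WSS, lower in low WSS in 12 of 14 pairs, and it fell by 0.38 (SE 0.07, adjusted p = 0.00034). In 11 of 14 low WSS pools it lay under every high WSS pool. Ndufs3, the last of the 6, had a difference of 0.17 (adjusted p = 0.0656).

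Ndufa11, a supernumerary subunit of the membrane arm, had the most negative difference of complex I. Its levels were 8.13 to 8.79 (median 8.24) in low WSS and 8.56 to 9.1 (median 8.87) in high WSS, and it fell by 0.50 (SE 0.08, adjusted p = 5.34e-05, lower in 12 of 14 pairs). The 4 low WSS pools with the highest levels, of 8.79, 8.61, 8.58 and 8.58, were those of pairs 3, 1, 7 and 2, and the other 10 lay under every high WSS pool. Ndufb11, also of the membrane arm, had 8.98 to 9.39 (median 9.19) in low WSS and 9.31 to 9.78 (median 9.57) in high WSS, with a lower level in low WSS in all 14 pairs (difference -0.355, SE 0.05, adjusted p = 1.24e-05). Ndufa7, a small subunit of the matrix arm, had 6.98 to 7.47 (median 7.17) in low WSS and 7.32 to 7.75 (median 7.59) in high WSS, and was lower in low WSS in all 14 pairs too (-0.35, SE 0.05, adjusted p = 3.42e-05). For each of these genes 10 of 14 low WSS pools lay under every high WSS pool. Ndufa8 and Ndufb10, supernumerary subunits that face the intermembrane space, fell by 0.29 and 0.24, again in all 14 pairs. Ndufb8, a membrane arm subunit, went up instead, with levels of 7.38 to 7.98 (median 7.68) in low WSS and 6.98 to 7.62 (median 7.36) in high WSS. It was higher in 13 of 14 pairs, by 0.37 (SE 0.06, adjusted p = 7.37e-05), although the ranges overlapped. Ndufb5, another subunit of that arm, ran from 9.19 to 9.94 (median 9.34) in low WSS and from 8.95 to 9.52 (median 9.1) in high WSS. It rose by 0.30 (SE 0.08, adjusted p = 0.00389, 12 of 14 pairs), with overlapping groups. The methods used the smooth muscle genes Tagln and Cnn1 as covariates in a regression with WSS as the response. Here both were added to the limma fit instead, in which the level of a gene is the response. Ndufs1 then had 0.36 (adjusted p = 0.0616), Ndufv1 0.30 (adjusted p = 0.0637) and Ndufb5 0.24 (adjusted p = 0.0758), and none of these passed. Calls were fewer over all genes as well, with 11% higher and 14.5% lower, against 19.7% and 22.0% without these covariates. Why a gene lost its call in this fit was not tested.

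**Figure D2:**
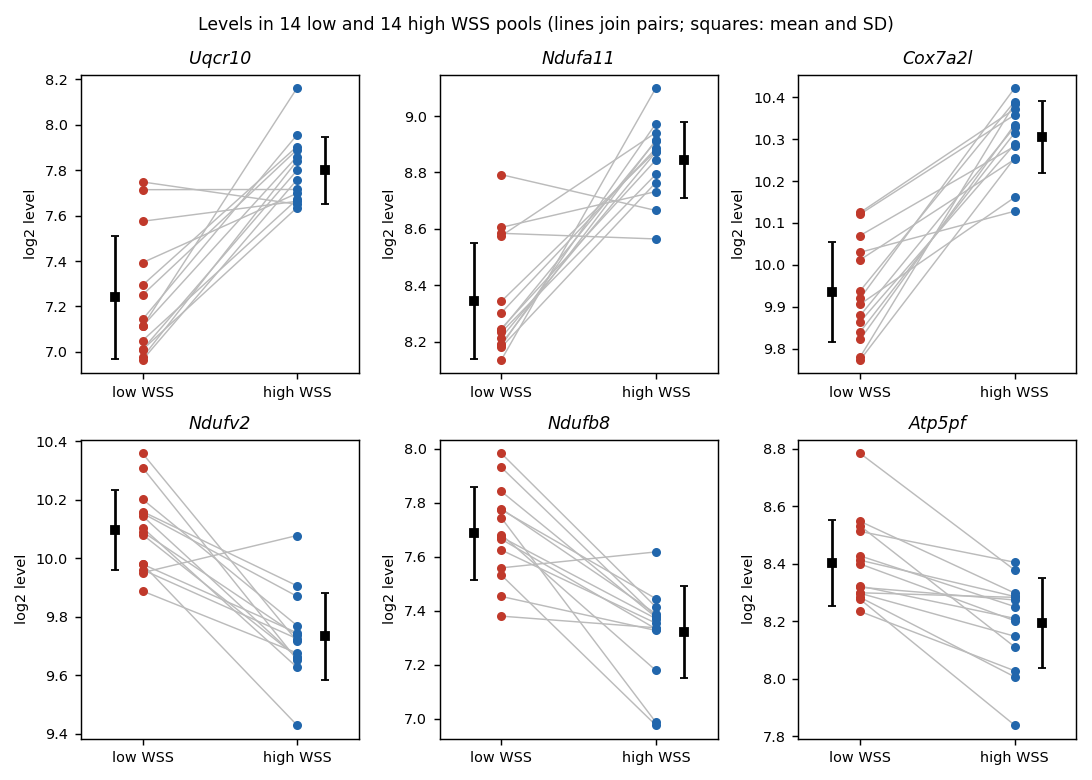
Log2 level of 6 subunit genes in each pool, low WSS pools (red) on the left and high WSS pools (blue) on the right, with lines joining pairs and squares with bars for the mean and SD of 14 pools; the y scales differ. Uqcr10, Ndufa11 and Cox7a2l were lower in low WSS in at least 12 of 14 pairs, and Ndufv2, Ndufb8 and Atp5pf were higher in at least 13 of 14.

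Complex II, the succinate dehydrogenase, which also belongs to the citric acid cycle, had 2 of 4 genes higher in low WSS and 0 lower, with a median of 0.16. Sdha, the flavoprotein that oxidises succinate, had levels of 8.72 to 9.56 (median 8.86) in low WSS and 8.48 to 9.23 (median 8.65) in high WSS. The ranges overlapped and 12 of 14 pairs were higher in low WSS, by 0.26 (SE 0.08, adjusted p = 0.0138). Sdhc, a membrane anchor, had 11.14 to 11.56 (median 11.48) in low WSS and 10.7 to 11.45 (median 11.31) in high WSS, and rose by 0.16 (SE 0.04, adjusted p = 0.00501, 13 of 14 pairs). Sdhb, the iron-sulphur subunit, ran from 8.49 to 9.38 (median 8.73) in low WSS and from 8.44 to 9.22 (median 8.64) in high WSS, a difference of 0.16 (SE 0.10, adjusted p = 0.195). Sdhd, the other anchor, ran from 7.9 to 9.06 (median 8.37) in low WSS and from 8.14 to 8.59 (median 8.37) in high WSS, a difference of 0.04 (SE 0.08, adjusted p = 0.685). Sdhb and Sdhd thus gave no call, and their pair differences ran from -0.59 to 0.79 and from -0.47 to 0.61.

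Complex III, the cytochrome bc1 complex, had 1 of 9 genes higher in low WSS, 2 lower and 6 that did not pass, with a median of 0.04. Its called genes were all small supernumerary subunits. Uqcr10 had levels of 6.97 to 7.75 (median 7.13) in low WSS and 7.63 to 8.16 (median 7.78) in high WSS. It fell by 0.56 (SE 0.09, adjusted p = 5.06e-05), a fold of 0.678 of low over high WSS, and 13 of 14 pairs were lower. The overlap came from the low WSS pools of pairs 1 and 3, at 7.71 and 7.75, while 12 low WSS pools lay under all high WSS pools. Uqcrq had 8.09 to 8.99 (median 8.48) in low WSS and 8.53 to 9.49 (median 9.02) in high WSS, and fell by 0.42 (SE 0.08, adjusted p = 0.000539, 12 of 14 pairs). Uqcrb had 10.65 to 11.31 (median 11.01) in low WSS and 10.4 to 11.04 (median 10.78) in high WSS, and rose by 0.27 (SE 0.06, adjusted p = 0.00251, 12 of 14 pairs). For Uqcrq and Uqcrb the groups overlapped. With Tagln and Cnn1 as covariates Uqcrb had 0.155 (adjusted p = 0.132) and no longer passed. The electron-carrying and core subunits did not pass. Cyc1, the cytochrome c1, had 8.51 to 9.5 (median 8.82) in low WSS and 8.43 to 9.41 (median 8.84) in high WSS, with a difference of 0.05 (SE 0.11, adjusted p = 0.735). Uqcrfs1, the Rieske iron-sulphur protein, and the core proteins Uqcrc1 and Uqcrc2 had differences of 0.08, 0.04 and 0.14, with adjusted p of 0.564, 0.824 and 0.23.

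Cycs, the mobile cytochrome c that links complexes III and IV, ran from 9.33 to 10.59 (median 9.84) in low WSS and from 9.71 to 10.52 (median 9.97) in high WSS. The difference of -0.11 (SE 0.10, adjusted p = 0.389) did not pass, and 4 of 14 pairs were higher in low WSS.

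Complex IV, the cytochrome c oxidase, had 1 of 16 genes higher in low WSS, 4 lower and 11 that did not pass, with a median of -0.01. Cox7a2l, which joins complexes III and IV into supercomplexes, gave the smallest adjusted p of all subunit genes. Its levels were 9.77 to 10.13 (median 9.91) in low WSS and 10.13 to 10.42 (median 10.32) in high WSS. It was lower in low WSS in all 14 pairs, by 0.37 (SE 0.04, adjusted p = 3.45e-06), and it was the 1 subunit gene of 78 whose groups did not overlap, which was seen for 1.13% of all genes. The gap was narrow, since the highest low WSS pool stood at 10.125 and the lowest high WSS pool at 10.128. Cox6b1, Cox8a and Cox6c, nuclear-encoded subunits around the catalytic core, also fell. Cox6b1 ran from 10.06 to 10.84 (median 10.22) in low WSS and from 10.29 to 11 (median 10.6) in high WSS, and fell by 0.27 (SE 0.085, adjusted p = 0.0154). Cox8a ran from 10.98 to 11.49 (median 11.22) in low WSS and from 11.21 to 11.62 (median 11.45) in high WSS, and fell by 0.21 (SE 0.05, adjusted p = 0.00364). Each was lower in 11 of 14 pairs, with overlapping groups. Cox6c fell by 0.19 (adjusted p = 0.00395), and Cox7c rose by 0.16 (adjusted p = 0.0153). With Tagln and Cnn1 as covariates Cox6b1 had -0.17 (adjusted p = 0.188), Cox8a -0.15 (adjusted p = 0.125) and Cox7c 0.18 (adjusted p = 0.0605), and none of these passed.

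Several complex IV subunits exist as a common form and a form restricted to certain tissues. Cox4i1, the common form, ran from 9.38 to 10.2 (median 9.7) in low WSS and from 9.33 to 9.96 (median 9.7) in high WSS, and its lung and hypoxia counterpart Cox4i2 from 6.78 to 7.37 (median 7.07) in low WSS and from 6.64 to 7.29 (median 7.06) in high WSS. Their differences were 0.04 (SE 0.08) and 0.01 (SE 0.05), with adjusted p of 0.734 and 0.858. Cox6a1 ran from 10.02 to 10.75 (median 10.33) in low WSS and from 10.12 to 10.65 (median 10.39) in high WSS, a difference of -0.02 (SE 0.07, adjusted p = 0.843). Its heart and skeletal muscle counterpart Cox6a2 ran from 3.99 to 4.5 (median 4.19) in low WSS and from 3.65 to 4.65 (median 4.3) in high WSS, near the minimum for testing, a difference of -0.09 (SE 0.095, adjusted p = 0.476). The groups of all these genes overlapped. Cox6b2, known from testis, ran from 5.63 to 6.11 (median 5.81) in low WSS and from 5.58 to 6.21 (median 5.89) in high WSS, a difference of -0.085 (SE 0.049, adjusted p = 0.175). Cox7a2 ran from 10.33 to 11.26 (median 10.66) in low WSS and from 10.36 to 11.14 (median 10.62) in high WSS, a difference of 0.006 (SE 0.096, adjusted p = 0.964). None of these forms passed. Cox8b, the form of heart, skeletal muscle and brown fat in rodents, stood out for its spread. It ran from 3.95 over a median of 4.38 to 6.9 in low WSS and from 3.86 over a median of 4.32 to 7.29 in high WSS, and its difference of 0.235 (SE 0.34) did not pass (adjusted p = 0.608), with 7 of 14 pairs higher in low WSS. Its highest low WSS pools were those of pairs 1, 7, 2 and 3, at 6.90, 6.86, 6.74 and 6.27, and its highest high WSS pool was that of pair 4, at 7.29. Cox7a1 is not analysed here.

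Complex V, the ATP synthase, had 5 of 18 genes higher in low WSS, 3 lower and 10 that did not pass, with a median of 0.07. The genes of the c subunit, which forms the rotating ring in the membrane, gave different results although their mature proteins are the same. Atp5mc3 ran from 9.78 to 10.32 (median 10.09) in low WSS and from 10.2 to 10.64 (median 10.39) in high WSS, and was lower in low WSS in all 14 pairs, by 0.34 (SE 0.04, adjusted p = 1.06e-05). Atp5mc1 ran from 7.84 to 8.51 (median 8.24) in low WSS and from 7.76 to 8.36 (median 8.11) in high WSS, and rose by 0.14 (SE 0.05, adjusted p = 0.0192, 12 of 14 pairs). Atp5mc2 ran from 10.4 to 10.86 (median 10.65) in low WSS and from 10.24 to 11.07 (median 10.6) in high WSS, and its difference of 0.04 (SE 0.05, adjusted p = 0.52) did not pass. The groups overlapped for each of these genes, although 10 of 14 low WSS pools of Atp5mc3 lay under every high WSS pool. The locus Atp5mc1l2, which also meets the symbol rule, fell by 0.33 (SE 0.05, adjusted p = 0.000106, 14 of 14 pairs), with levels of 3.67 to 4.03 (median 3.93) in low WSS and 3.93 to 4.51 (median 4.25) in high WSS. Its mean level of 4.06 was just over the minimum for testing, and whether probes of these related genes share sequence was not tested.

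Atp5pf and Atp5pb, subunits of the peripheral stalk that holds the catalytic head still, rose. Atp5pf had levels of 8.23 to 8.78 (median 8.36) in low WSS and 7.84 to 8.4 (median 8.23) in high WSS, and although the groups overlapped it was higher in every pair (0.21, SE 0.04, adjusted p = 0.000474), with pair differences from 0.02 to 0.44. Atp5pb rose by 0.225 (SE 0.06, adjusted p = 0.00477, 13 of 14 pairs). Atp5pd and Atp5po, which also belong to the stalk, did not pass. Atp5pd had 0.12 (adjusted p = 0.148), and 0.17 (adjusted p = 0.0149) on its dimmer probe set. Atp5po had -0.10 (adjusted p = 0.273). Atp5f1c, the gamma subunit of the central shaft, rose by 0.12 (adjusted p = 0.0278), but did not pass when any of pairs 2, 3, 7, 9 or 12 was left out (differences of 0.102 to 0.117, adjusted p of 0.0508 to 0.058). Atp5f1a and Atp5f1b, the alpha and beta subunits of the catalytic head, had differences of 0.18 (adjusted p = 0.0725) and 0.11 (adjusted p = 0.145). Atp5mf, a membrane subunit, fell by 0.25 (adjusted p = 0.0141). Atp5if1, the inhibitor of the enzyme, had a difference of -0.04 (adjusted p = 0.368). With Tagln and Cnn1 as covariates Atp5pb had 0.18 (adjusted p = 0.0704), Atp5mc1 0.13 (adjusted p = 0.17), Atp5f1c 0.083 (adjusted p = 0.324) and Atp5mf -0.26 (adjusted p = 0.0556), and none of these passed.

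For 10 of the 78 genes more than 1 probe set was tested, and the one with the highest mean level was used. The call was shared by all probe sets for 6 of these genes and not for Atp5mk, Atp5pd, Cox6b1 and Ndufc2. Ndufc2, an accessory subunit of complex I, had a difference of 0.035 on its brighter probe set and of -0.20 (adjusted p = 0.0155) on its dimmer one.

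Within pairs, subunit genes moved with the fat cell genes. Brown fat cells, which surround the thoracic aorta of rats, are rich in mitochondria. In a limma fit with the fat cell list mean as a covariate beside the pair, 40 of 78 subunit genes (51.3%) had a positive slope on that mean at an adjusted p under 0.05, against 6.00% of all genes tested, and 0 had a negative slope, against 1.17%. The median slope was 0.13 log2 units per unit of the list mean, against -0.001 over all genes. This slope was added after the data were seen. In pair 7, where the list mean was higher in low WSS by 2.72, 66 of 78 subunit genes were higher in low WSS, and in pair 4, where it differed by -1.69, 11 of 78 were. In pair 6, at -1.70, 14 of 78 were higher. Pairs 1, 2 and 3, at 1.83, 3.00 and 2.35, had 61, 54 and 62 higher. The 8 remaining pairs, with list differences of -0.37 to 0.99, had 22 to 45, and the 45 belonged to pair 5, at -0.37. Shares over all genes in each single pair were not computed. The mean level over the 78 genes ran from 8.56 to 9.03 in low WSS and from 8.64 to 9.00 in high WSS, with the pools of pair 7 in low WSS and pair 4 in high WSS at the top of their groups.

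**Figure D3:**
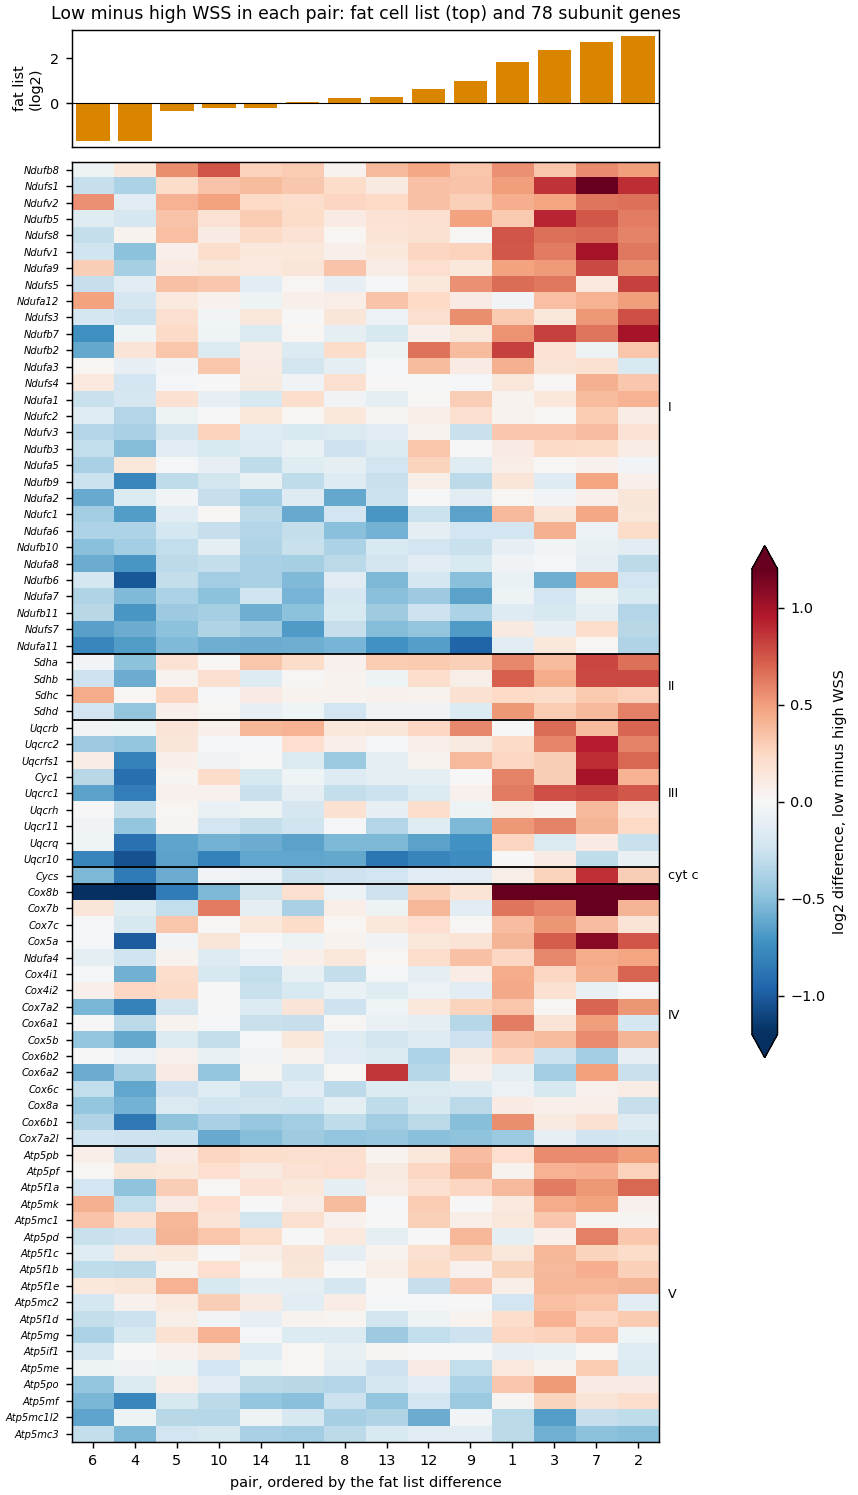
Log2 difference (low minus high WSS, colour scale from blue for lower to red for higher, values past ±1.2 drawn at the end of the scale) of 78 subunit genes (rows, by complex) in each of 14 pairs (columns), with the difference in the fat cell list mean above. The columns of pairs 6 and 4 at the left are mostly blue, with 14 and 11 of 78 genes higher in low WSS, and those of pairs 1, 3, 7 and 2 at the right mostly red, with 61, 62, 66 and 54.

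By complex, a positive slope was found in 17 of 30 genes of complex I, 3 of 4 of complex II, 6 of 9 of complex III, 8 of 16 of complex IV and 5 of 18 of complex V, and in Cycs. Over all genes tested the share was 6.00%. Cox8b had the steepest slope, 0.97 (SE 0.05, adjusted p = 2.16e-10), and followed the list nearly unit for unit. In the core genes of complexes I to III, the slope was 0.33 for Uqcrc1 (adjusted p = 2.91e-06), 0.27 for Ndufs1 (adjusted p = 1.39e-05), 0.25 for Ndufv1 (adjusted p = 8.39e-06) and 0.25 for Sdhb (adjusted p = 2.06e-05). Among genes that differed in every pair, some had slopes that did not pass. Cox7a2l had 0.02 (adjusted p = 0.747), Atp5mc3 had -0.03 (adjusted p = 0.651) and Atp5pf had 0.06 (adjusted p = 0.202). Ndufv2 and Ndufb8, which rose, had 0.08 each, with adjusted p of 0.158 and 0.268. Ndufa11 and Uqcr10, which fell, had positive slopes of 0.15 (adjusted p = 0.0345) and 0.20 (adjusted p = 0.00194). Their fall was smaller or absent in pairs 1, 2, 3 and 7, where the list difference was largest. For Ndufa11 the pair differences were -0.127, -0.365 and 0.126 in pairs 1 to 3 and 0.02 in pair 7, against -0.53 to -0.96 in the other 10 pairs. The -0.96 came from pair 9, where the list mean was higher in low WSS by 0.99. For Uqcr10 the pair differences were -0.001, -0.09 and 0.10 in pairs 1 to 3 and -0.31 in pair 7, against -0.61 to -1.05 in the other 10 pairs. Pairs 1 to 3 were also those whose pools did not deviate together, with correlations within the pair of 0.039, -0.012 and 0.002. In pairs 4 to 14 alone neither slope passed, at 0.11 for Ndufa11 (adjusted p = 0.368) and 0.11 for Uqcr10 (adjusted p = 0.2).

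**Figure D4:**
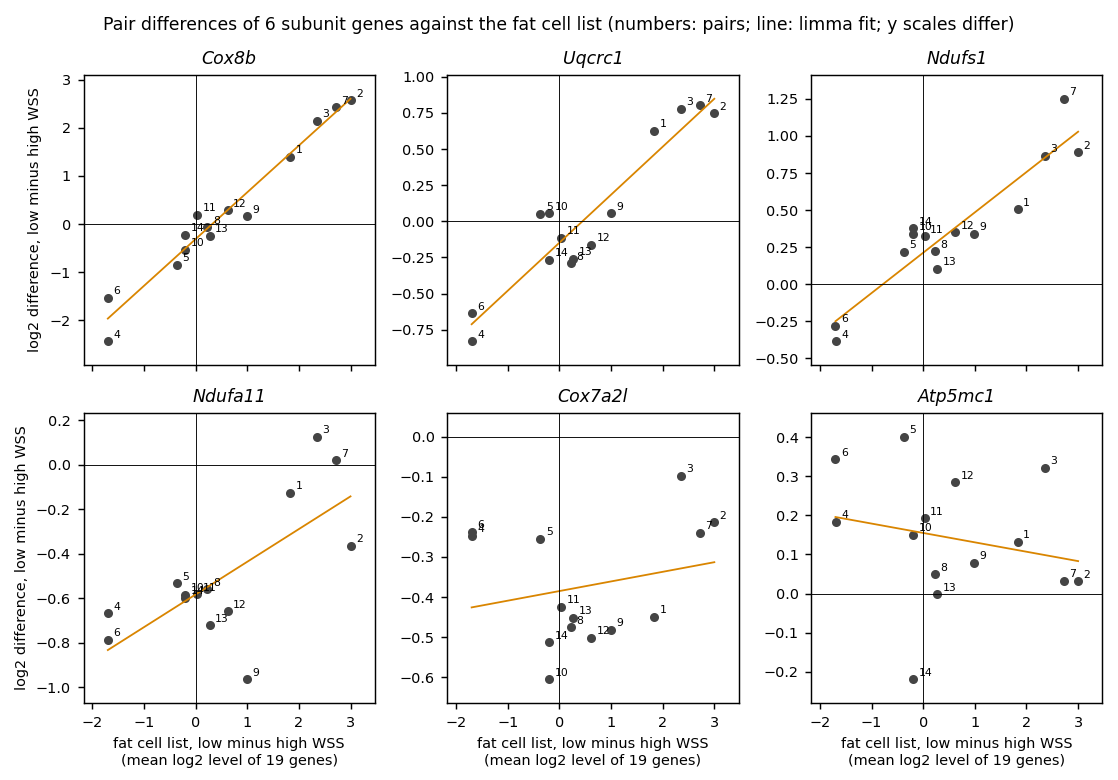
Pair differences (low minus high WSS, log2) of 6 subunit genes on the y axis against the pair difference in the fat cell list mean on the x axis, with 1 point per pair labelled by its number and the slope of the limma fit as a line; the y scales differ. Cox8b, Uqcrc1 and Ndufs1 climb with the list (slopes 0.97, 0.33 and 0.27), while all 14 points of Cox7a2l lie under 0 at a slope of 0.02.

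With the fat cell list as a covariate, 13 subunit genes rose in low WSS and 26 fell, against 19.2% and 22.4% of all genes, and the median difference was -0.045, against -0.011 over all genes. All 18 genes that fell without the covariate fell with it, and 13 of the 17 that rose did so too. Ndufa12, Cox7c, Atp5f1c and Atp5mk no longer passed. The 8 genes that fell with the covariate, but not in the fit of all pairs without it, were Ndufc1, Ndufb9, Ndufb3, Uqcrc1, Cox5b, Cox8b, Atp5po and Cycs. Whether their differences in the fits with and without the covariate differ was not tested. With the covariate Cox8b had -0.31 (adjusted p = 0.00347) and Cycs -0.26 (adjusted p = 0.00186). By complex, the genes that rose and fell with the covariate numbered 7 and 12 in complex I, 2 and 0 in complex II, 1 and 3 in complex III, 0 and 6 in complex IV, and 3 and 4 in complex V.

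**Figure D5:**
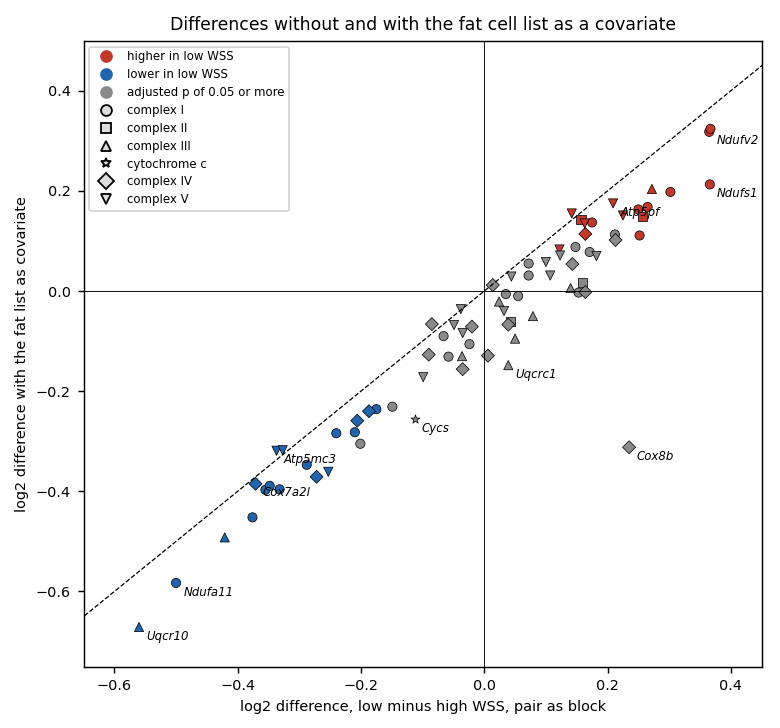
Log2 difference (low minus high WSS) of 78 subunit genes without (x axis) and with (y axis) the fat cell list as a covariate, coloured by the call without it and shaped by complex, with a dashed line of equal values. Most points lie under the line, Cox8b lies furthest from it at 0.235 without and -0.312 with the covariate, and the genes of the lower left, such as Uqcr10 and Ndufa11, keep their side.

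In pairs 4 to 14 alone, which leaves out the 3 first pairs, 7 subunit genes rose and 20 fell, against 18.1% and 23.2% of all genes, with a median of -0.04. The slope on the fat cell list was then positive in 21 of 78 genes (26.9%), against 2.74% of all genes. Uqcr10 had -0.71 (adjusted p = 4.03e-07) and Ndufa11 -0.60 (adjusted p = 7.93e-06) in these pairs. Ndufc1 (-0.32, adjusted p = 0.0123) and Atp5po (-0.21, adjusted p = 0.00615), which were not called over all pairs, also fell in pairs 4 to 14. Ndufv2, Ndufb8, Ndufb5, Sdhc, Uqcrb, Atp5pf and Atp5pb were the 7 genes that rose in them, while Ndufs1 (0.26, adjusted p = 0.0655), Ndufs8 (0.15, adjusted p = 0.0744) and Sdha (0.18, adjusted p = 0.0978) did not pass.

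Genes that work beside the subunits were taken from 4 lists. Of 36 assembly factors tested, 6 rose in low WSS and 8 fell, with a median of -0.01. These counts, like those of the lists that follow, are read against the 19.7% higher and 22.0% lower among all genes, and here they lay near it. The 4 with the smallest adjusted p were Coa5 and Coa7, needed for complex IV, which rose by 0.67 (adjusted p = 1.29e-05) and 0.46 (adjusted p = 4.4e-05), Tmem126b of the complex I assembly machinery, which rose by 0.29 (adjusted p = 0.000144), and Uqcc3 of complex III, which fell by 0.30 (adjusted p = 1.5e-05) and was lower in all 14 pairs. Of 14 genes of the citric acid cycle and pyruvate dehydrogenase, 5 rose and 1 fell, with a median of 0.17. Idh3b and Idh3a, subunits of the NAD-dependent isocitrate dehydrogenase, rose by 0.51 (adjusted p = 0.00011) and 0.54 (adjusted p = 0.00422), and Dld, the shared dihydrolipoamide dehydrogenase subunit, by 0.32 (adjusted p = 0.00187). Suclg2, a subunit of succinyl-CoA ligase, rose by 0.18 (adjusted p = 0.00177). The gene that fell, named after its value was seen, was Idh2, the NADP-dependent isocitrate dehydrogenase of mitochondria, at -0.14 (adjusted p = 0.00695). In this list 12 of 14 genes had a positive slope on the fat cell list, against 6.00% of all genes.

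Of 21 carriers and membrane proteins of mitochondria, 9 rose in low WSS and 0 fell, with a median of 0.12. A positive slope on the fat cell list was found for 8 of them, against 6.00% of all genes. Slc25a5, an exchanger of ADP and ATP, rose by 0.335 (adjusted p = 3.36e-05) and was higher in all 14 pairs. Vdac2, a channel of the outer membrane, rose by 0.22 (adjusted p = 0.000305), Chchd3, a protein of the cristae junctions, by 0.375 (adjusted p = 0.000532), and Mfn1, which fuses outer membranes, by 0.23 (adjusted p = 0.00235). With the fat cell list as a covariate 8 of the 21 genes rose, against 19.2% of all genes. Of 15 regulators of mitochondrial biogenesis, 3 rose and 3 fell, with a median of -0.01, and 1 had a positive slope, near the 6.00% of all genes. Tfam and Tfb1m, which act in transcription of mitochondrial DNA, rose by 0.21 (adjusted p = 0.000846) and 0.20 (adjusted p = 0.000275), and Ssbp1, which binds its single strands, by 0.16 (adjusted p = 0.012). Polrmt, the mitochondrial RNA polymerase, fell by 0.22 (adjusted p = 8.36e-05) and was lower in all 14 pairs. None of the 13 subunits encoded in mitochondrial DNA was analysed here.

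Markers of the cell types that the wall could hold were read beside these counts and against the same 19.7% higher and 22.0% lower among all genes. Besides the fat cell genes, 0 of 9 contractile smooth muscle genes rose and 4 fell, 2 of 12 heart and skeletal muscle genes rose and 3 fell, 0 of 8 endothelial genes rose or fell, 3 of 10 fibroblast genes rose and 4 fell, and 2 of 9 myeloid genes rose and 1 fell. Tagln and Cnn1, smooth muscle proteins whose levels the methods used as covariates, had differences of 0.055 (adjusted p = 0.252) and -0.004 (adjusted p = 0.943). With both as covariates, 7 subunit genes rose and 13 fell, while over all genes the shares were 11.0% and 14.5%. Of the 8 endothelial genes, 7 had a positive slope on the fat cell list, against 6.00% of all genes. The part of endothelial, fibroblast, myeloid and striated muscle cells in the differences was not tested.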

How the data were processed

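Tissue of 14 low and 14 high WSS pools was hybridised by the authors to Affymetrix Rat Gene 1.1 ST arrays, 1 array per pool. The authors processed the scans with RMA (background correction, quantile normalization over arrays and 1 summary per probe set, annotation of build rn4) and deposited log2 levels. A change in total mRNA cannot be seen in values made in this way. Arrays hold no read depth, and their number limits the precision.

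From this table, probe sets with a gene symbol and a mean level of at least 4 were kept (13383 of 29214). The methods describe this filter, but the platform annotation used here gave another number than theirs. Low and high WSS were compared with limma 3.58.1 in R 4.3.3, with the pair as a block, and p-values were adjusted by Benjamini-Hochberg over all 13383 probe sets. They rest on the spread of the low minus high differences over the 14 pairs. A gene was represented by its 1-symbol probe set with the highest mean level, and 8 probe sets with several symbols that included a subunit were not used. Pairs come from the replicate numbers and the methods, in which a pair holds both regions of its animals. Deviations of same-number pools from their group means correlated at -0.012 to 0.481, over 0.1 in 11 of 14 pairs (the exceptions were 1, 2 and 3), against -0.017 on average between different numbers. Pairs 4 to 14 were fitted alone because fat cell genes differed widely in the first 3. The remaining pairs are not free of such differences, since pairs 4, 6 and 7 had -1.69, -1.7 and 2.72 in the list mean. The fit was tested on simulated arrays over 13383 probe sets. It recovered 20, 37, 47 and 50 of 50 changes of 0.2, 0.3, 0.5 and 1, with 7 false calls. Only these changes were set, with independent noise, whereas 41.7% of genes were called in the real data. Recovery in the real data was therefore not measured. Probe sets given a slope on the fat cell list were left out of the false calls.

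Full values are given for the 6 members with the largest rise and the 6 with the largest fall that passed, the 2 smallest adjusted p in each complex, Sdh genes, Cycs, Cyc1 and isoform sets, 32 genes in all, and for Atp5pf, added after its values were seen. In other lists up to 4 genes with the smallest adjusted p are named. Ndufa4 was counted with complex IV. Members and lists were chosen with earlier results of these data known. Alternatives were the paired t-test of the methods, no pair block, trend and robust estimation, array weights, other minimum levels, probe sets without symbols, the mean over probe sets, centred or again quantile normalized arrays, covariates for smooth muscle or fat cell genes, pairs 4 to 14 alone and each pair left out.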

Additional observations from a re-analysis of the deposited data

How the results depend on the processing

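The count of subunit genes that rose in low WSS was 7 with Tagln and Cnn1 as covariates and 7 in pairs 4 to 14 alone, against 17 with all pairs, and the cause was not tested. Over all genes tested, 11% and 18.1% rose in these fits, against 19.7% in the main fit. Without the replicate block the counts were 17 higher and 17 lower of 78, against 17.1% and 18.6% of all genes. Leaving out 1 pair in turn gave 14 to 23 higher, 17 to 20 lower and a median of 0.013 to 0.072. Over all genes these fits gave 17.5% to 21.3% higher and 20.2% to 22.9% lower.

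Of the 35 called subunit genes, 16 passed under every alternative in which they were tested, and 0 changed sign. Those that lost the call under some alternative were Atp5f1c, Atp5mc1, Atp5mf, Atp5mk, Atp5pb, Cox6b1, Cox7c, Cox8a, Ndufa2, Ndufa9, Ndufa12, Ndufb5, Ndufb6, Ndufs1, Ndufs8, Ndufv1, Sdha, Sdhc and Uqcrb. Without the replicate block Atp5mc1 (adjusted p = 0.0806), Ndufa2 (0.0609) and Sdhc (0.0512) did not pass. Signs turned for Atp5mc2, Cox4i1, Cox4i2, Cox6a1, Cox7a2, Cox8b, Cyc1 and Sdhd, which had not passed. With array weights Cox4i1 had -0.022, Cox4i2 -0.047 and Sdhd -0.001. With centred arrays Cox6a1 had 0.018, and with arrays quantile normalized again Atp5mc2 had -0.017 and Cox7a2 -0.051. With Tagln and Cnn1 as covariates Atp5mc2 had -0.003 and Cox6a1 0.118. With the fat cell covariate Cox4i1 had -0.067, Cox7a2 -0.129, Cox8b -0.312, Cyc1 -0.095 and Sdhd -0.061, and in pairs 4 to 14 Cox4i1 had -0.077, Cox4i2 -0.039, Cox7a2 -0.071, Cox8b -0.256, Cyc1 -0.055 and Sdhd -0.077. Leaving out 1 pair in turn gave -0.012 to 0.086 for Cox4i1, -0.02 to 0.035 for Cox4i2, -0.069 to 0.004 for Cox6a1, -0.047 to 0.069 for Cox7a2, -0.023 to 0.123 for Cyc1 and -0.002 to 0.081 for Sdhd.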
